A study of Homo sapiens with 22 samples.

Results

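Transcripts of 9 genes for proteins that bind actin filaments were followed in HT1080 cells, a human fibrosarcoma line, after lysine deacetylase KDAC6 or KDAC8 was inactivated or inhibited. The genes were FLNA, FLNC, CTTN, ACTN1, ACTN4, TAGLN, CNN1, CNN2 and TPM1, chosen by name among 60675 genes in the table. FLNC was selected on measured values, because its transcript was lost in 1 mutant line, and CTTN because its protein, cortactin, is a KDAC6 substrate. RNA depleted of rRNA was sequenced in 22 libraries of 6 groups. WT cells (4 libraries) were untreated HT1080 cells with unedited deacetylase genes. In 3 mutant lines (4 libraries each), CRISPR/Cas9 had replaced a histidine of a catalytic domain with alanine at the endogenous gene. KDAC6H216A carries the change in the first catalytic domain of KDAC6 and is a pool of independent clones, KDAC6H611A carries it in the second catalytic domain, and KDAC8H143A in the single domain of KDAC8. Both of the last were grown from single colonies, so that a property of the clone and of the mutation cannot be told apart. The other 2 groups (3 libraries each) were WT cells given Tubastatin A, a KDAC6 inhibitor, at 1 µM or PCI-34051, a KDAC8 inhibitor, at 5 µM for 2 days. Their reference was the same untreated WT group, and a vehicle control was not analysed here.

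Actin filaments carry shape, adhesion and movement of a fibroblast-like cell. Filamins, such as FLNA and FLNC, are long dimers that join filaments into loose orthogonal nets and tie them to membrane receptors. Alpha-actinins (ACTN1, ACTN4) bundle filaments in stress fibers and at adhesions. Cortactin (CTTN) binds the Arp2/3 complex and stabilizes the branched networks of lamellipodia and invadopodia, and its deacetylation by KDAC6 raises its binding to filaments. Tropomyosin (TPM1), the calponins (CNN1, CNN2) and transgelin (TAGLN) lie along filaments and tune myosin activity. TAGLN, CNN1 and TPM1 are classical targets of serum response factor (SRF), which responds to the pool of free actin through the coactivators MRTFA and MRTFB, and SRF binds a DNA element called the CArG box.

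Total counts per library ran from 5248960 to 29862658, and the smallest sum over the 9 genes in a library was 19839 counts, so that only CNN1, FLNC in 1 line and TAGLN were limited by counting. Levels are given as CPM, the counts of a gene per 1e6 counts of the library, scaled by TMM over all libraries. Mitochondrial rRNA took 20.8% to 23.9% of the counts in WT libraries and at most 0.0259% in KDAC8H143A and in both inhibitor groups. It took 13.1% to 15.1% in KDAC6H216A, apart from replicate 1 with 0.195%. In KDAC6H611A it took 21.0% to 38.0%, apart from replicate 4 with 0.173%. For KDAC8H143A and the inhibitors this difference in libraries and the condition cannot be told apart. HDAC6, the gene of KDAC6, was at 6.37 ± 0.75 CPM in KDAC6H216A (SD, n = 4) against 14.2 ± 3.28 CPM in WT cells (log2 fold change -1.25, adjusted p = 5.40e-03), and did not pass the test in the other groups. That call was lost with the replicate block and without WT replicate 2, 3 or 4 or KDAC6H216A replicate 2, 3 or 4. HDAC8, the gene of KDAC8, had log2 fold changes between -0.08 and 0.03, none called, and counts per gene do not show the edited bases. VIM, a mesenchymal marker, was at 2083 to 4681 CPM over the libraries. Of the same marker list, FN1, CDH2, SPARC and LOX were above 1 CPM in all 22 libraries, while S100A4 was at 0 to 3.26 CPM. The 4 epithelial markers summed to at most 0.34 CPM.

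All 9 genes were found once in the table. FLNA (ENSG00000196924) lies at chrX:154348524-154374634 on the minus strand, FLNC (ENSG00000128591) at chr7:128830406-128859274 on the plus strand, and CTTN (ENSG00000085733) at chr11:70398404-70436584 on the plus strand (GRCh38, GENCODE release 44). ACTN1 (ENSG00000072110) lies at chr14:68874128-68979440 on the minus strand and ACTN4 (ENSG00000130402) at chr19:38647649-38731589 on the plus strand. TAGLN (ENSG00000149591) lies at chr11:117199370-117207464, CNN1 (ENSG00000130176) at chr19:11538767-11550323, CNN2 (ENSG00000064666) at chr19:1026586-1039068 and TPM1 (ENSG00000140416) at chr15:63042620-63071915, all on the plus strand. In WT cells FLNA had the highest level per length, 315 ± 31.1 CPM per kb of its main transcript (SD, n = 4). ACTN4 followed with 178 ± 13.8 CPM per kb and TPM1 with 167 ± 12.8 CPM per kb, a pair whose libraries overlapped. Next came ACTN1 with 113 ± 7.27, CTTN with 77.5 ± 2.70, CNN2 with 41.3 ± 3.77 and FLNC with 16.7 ± 1.07 CPM per kb. TAGLN with 1.61 ± 0.30 and CNN1 with 0.077 ± 0.089 CPM per kb were the lowest. The set thus held abundant nonmuscle crosslinkers beside transcripts of the smooth muscle program at low levels.

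Upstream sequence is shown for the filamin that was lost, for its abundant paralog, and for CNN2, which rose with both inhibitors and holds a CArG box. RefSeq entries (GRCh38.p14) were given for 7 of the 9 genes, in 11 entries, and CTTN and TAGLN had none. The 250 bases before the annotated start are written 5′ to 3′ on the strand of the gene. Capitals mark each match, on either strand, to the CArG box, to the GC box GGGCGG, to the TEAD motif GGAATG or to the AP-1 motif TGANTCA; neighboring or overlapping matches run together.
FLNC, chr7:128830156-128830405, plus strand: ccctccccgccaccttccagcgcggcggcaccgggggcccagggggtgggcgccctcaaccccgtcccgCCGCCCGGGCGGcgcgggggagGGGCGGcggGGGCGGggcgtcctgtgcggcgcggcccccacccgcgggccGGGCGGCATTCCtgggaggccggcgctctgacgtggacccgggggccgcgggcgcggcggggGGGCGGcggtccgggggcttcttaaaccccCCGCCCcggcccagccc
FLNA, chrX:154374635-154374884, minus strand: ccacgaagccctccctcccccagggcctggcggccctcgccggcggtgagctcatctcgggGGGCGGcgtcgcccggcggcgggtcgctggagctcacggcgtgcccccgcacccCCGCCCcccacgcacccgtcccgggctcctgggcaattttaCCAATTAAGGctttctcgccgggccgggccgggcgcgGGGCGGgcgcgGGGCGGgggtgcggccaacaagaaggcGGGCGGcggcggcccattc
CNN2, chr19:1026358-1026607, plus strand: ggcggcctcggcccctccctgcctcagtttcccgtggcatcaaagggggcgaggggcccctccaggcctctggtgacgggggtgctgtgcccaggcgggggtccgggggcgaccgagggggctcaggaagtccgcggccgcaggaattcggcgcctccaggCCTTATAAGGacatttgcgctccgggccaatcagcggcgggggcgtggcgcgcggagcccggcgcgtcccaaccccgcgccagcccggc
The FLNC stretch had a GC content of 85.6% and 38 CG dinucleotides, against medians of 58.0% and 11 over all 35116 entries, and that of FLNA had 78.4% and 35. It held the GC box 7 times, a motif in 42.6% of all entries, and the TEAD motif once, 98 to 103 bases before the start, a motif in 11.9% of all entries. FLNA held the GC box 5 times and a CArG box 85 to 94 bases before its start. CNN2 held a CArG box 80 to 89 bases before its start, and 1 of the 4 ACTN1 starts had one as well, while 1.16% of all entries held one. The entries of TPM1, which was called higher with both inhibitors, and of CNN1 held no CArG box. That of TPM1, chr15:63048239-63048488, lies inside the gene as placed above. The stretch before the TPM1 start given above had no entry and was not searched. FLNA, which held one, was not called with either inhibitor in the main fits. Whether the box bears on these levels was not tested. The AP-1 motif, in 6.57% of all entries, was matched only in ACTN4 among these 7 genes. These matches are of letters only.

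**Figure D1:**
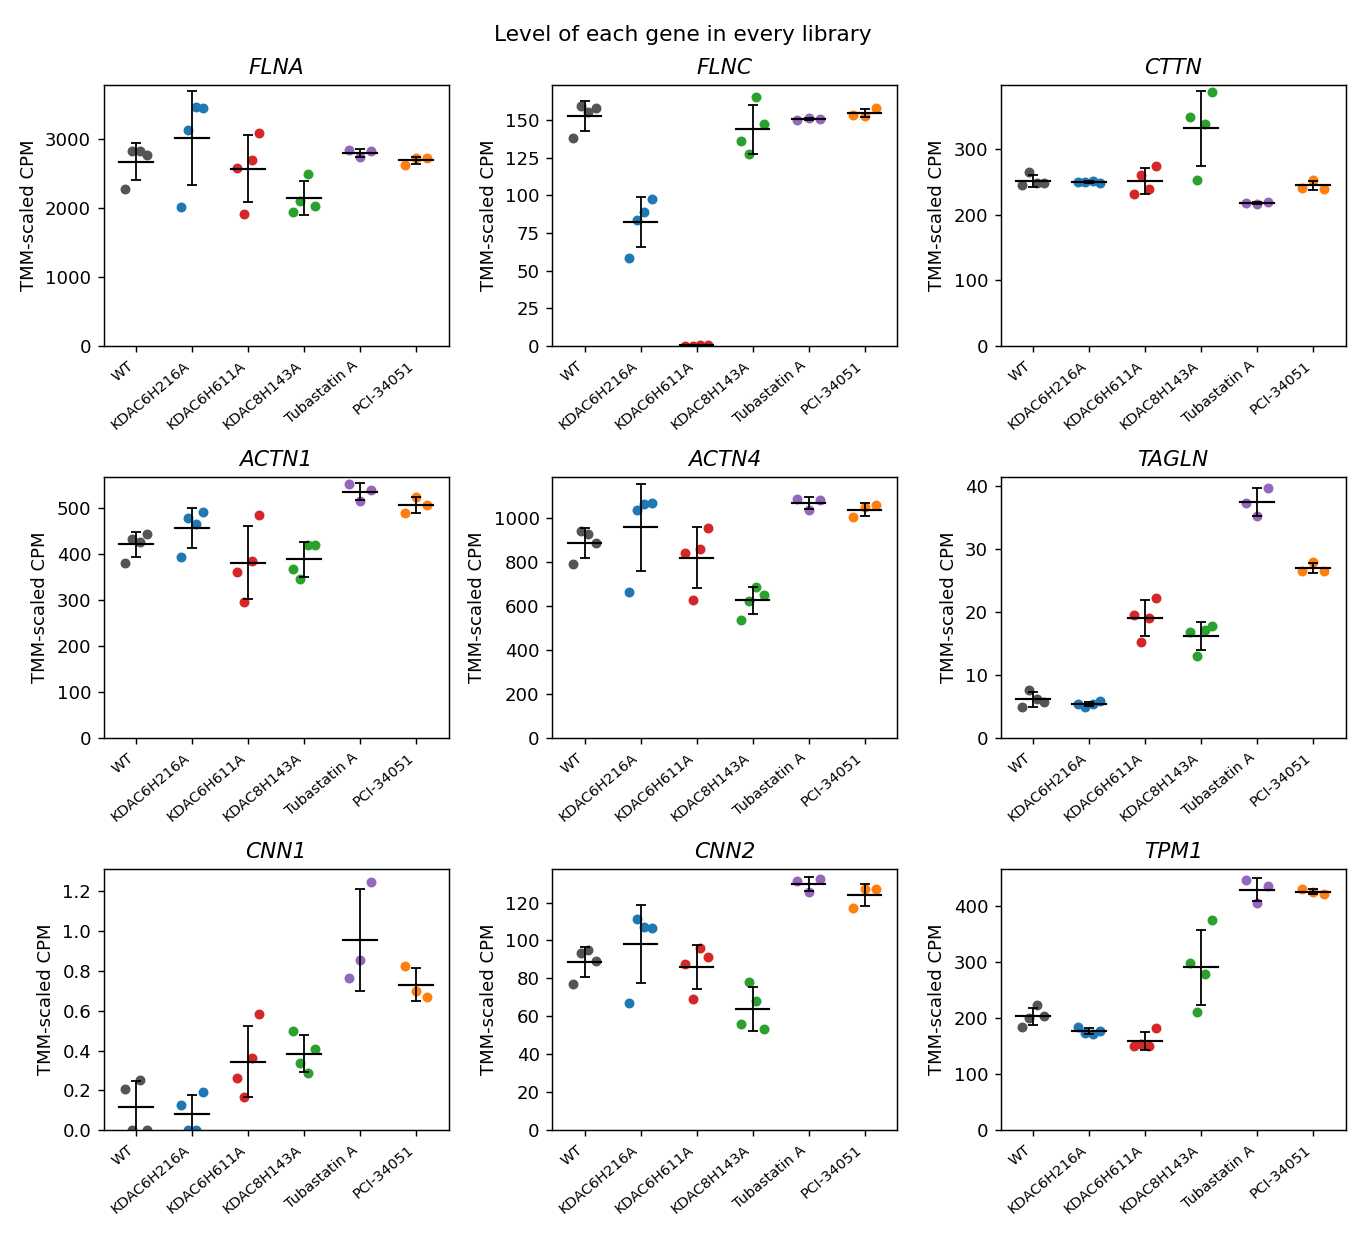
Level of each of the 9 genes in every library (points, TMM-scaled CPM, linear axis from 0) by group, with the mean (line) and SD (bar). FLNC was near 0 in the 4 KDAC6H611A libraries and at 58.6 to 97.5 CPM in KDAC6H216A, below the 138 CPM of the lowest WT library, while TAGLN and TPM1 were highest with the inhibitors.

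FLNC, the filamin best known from striated muscle, was the gene of this set with the widest range. In WT cells it was at 138, 159, 155 and 158 CPM in replicates 1 to 4. In KDAC6H611A the 4 libraries held 0, 1, 4 and 3 FLNC counts, or at most 0.36 CPM, while each WT library held between 668 and 1276. Summed over libraries, 4264 counts stood against 8, and at equal depth the WT level was 639-fold higher (95% interval 324 to 1480.2, counting error only). This contrast chose the gene, so the values are a description without a test. The fitted log2 fold change was -9.20 ± 0.22 (SE) and ran from -9.56 to -8.85 when single libraries were left out, with -9.43 without KDAC6H611A replicate 4.

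In KDAC6H216A FLNC was at 58.6, 83.6, 88.8 and 97.5 CPM in replicates 1 to 4, and all 4 lay below every WT library. The log2 fold change was -0.99 ± 0.10 (SE), or 0.503 of the WT level, with an adjusted p of 1.28e-03 in edgeR's quasi-likelihood test. FLNC was the 1 gene called in KDAC6H216A of the 8 tested, where 0.214% of all genes were called higher and 0.621% lower. The call was just lost, at an adjusted p of 0.0102 each, without WT replicate 3, without WT replicate 4 or without KDAC6H216A replicate 2, while the log2 fold change stayed between -1.07 and -0.90. Replicate 1, the library with little mitochondrial rRNA, was the lowest. Without it the value was -0.90 ± 0.06 (adjusted p = 2.79e-09), in a fit that called 12.2% of all genes higher and 13.8% lower.

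In the main edgeR fits neither inhibitor nor the KDAC8 mutation gave a called difference for FLNC. Tubastatin A libraries were at 149.9, 152 and 151 CPM, PCI-34051 libraries at 153, 153 and 158 CPM, and KDAC8H143A libraries at 136, 128, 165 and 147 CPM, all overlapping WT cells. The log2 fold changes were -0.13 ± 0.05 with Tubastatin A (adjusted p = 0.0157), -0.08 ± 0.05 with PCI-34051 (adjusted p = 0.195) and -0.03 ± 0.10 in KDAC8H143A (adjusted p = 0.782). CPM over all libraries and the fits of pairs of groups were scaled separately, so that small differences need not match between them. With Tubastatin A the value passed the threshold without WT replicate 1 (-0.15, adjusted p = 4.99e-03) and under DESeq2 (-0.14, adjusted p = 4.04e-03). In KDAC8H143A the GC and length correction gave -1.01 (adjusted p = 7.48e-06) and library totals only gave 0.25 (adjusted p = 0.0709). With Tubastatin A and PCI-34051 the correction gave -0.22 in each (adjusted p = 1.63e-04 and 6.90e-04) and library totals gave 0.22 and 0.31 (adjusted p = 1.07e-03 and 1.67e-04). Library totals moved the median of all genes by a like amount, to 0.35 with Tubastatin A, 0.38 with PCI-34051 and 0.36 in KDAC8H143A. The order of the group means went from KDAC6H611A to KDAC6H216A and then to the other 4 groups, whose libraries overlapped.

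The share of FLNC in the summed counts of FLNA and FLNC does not depend on how libraries are scaled. It was 5.41% ± 0.21 in WT cells (SD, n = 4) and 2.66% ± 0.14 in KDAC6H216A, where replicate 1 was at 2.81% and the others at 2.50% to 2.75%. The exact two-sided permutation test gave p = 0.0286, the smallest that 4 against 4 libraries allow, and 0.0914 after Benjamini-Hochberg adjustment over 16 tests of shares. In KDAC6H611A the share was highest in replicate 3 at 0.0134% (Wilson 95% interval 0.0052% to 0.0345%). In KDAC8H143A FLNC made up 6.31% ± 0.47, with the same p, and its lowest library (5.715%) lay just above the highest WT library (5.708%). With Tubastatin A the share was 5.11% ± 0.12 (exact permutation p = 0.114, adjusted 0.183) and with PCI-34051 5.43% ± 0.11 (exact permutation p = 0.914), n = 3 each, both overlapping WT cells.

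**Figure D2:**
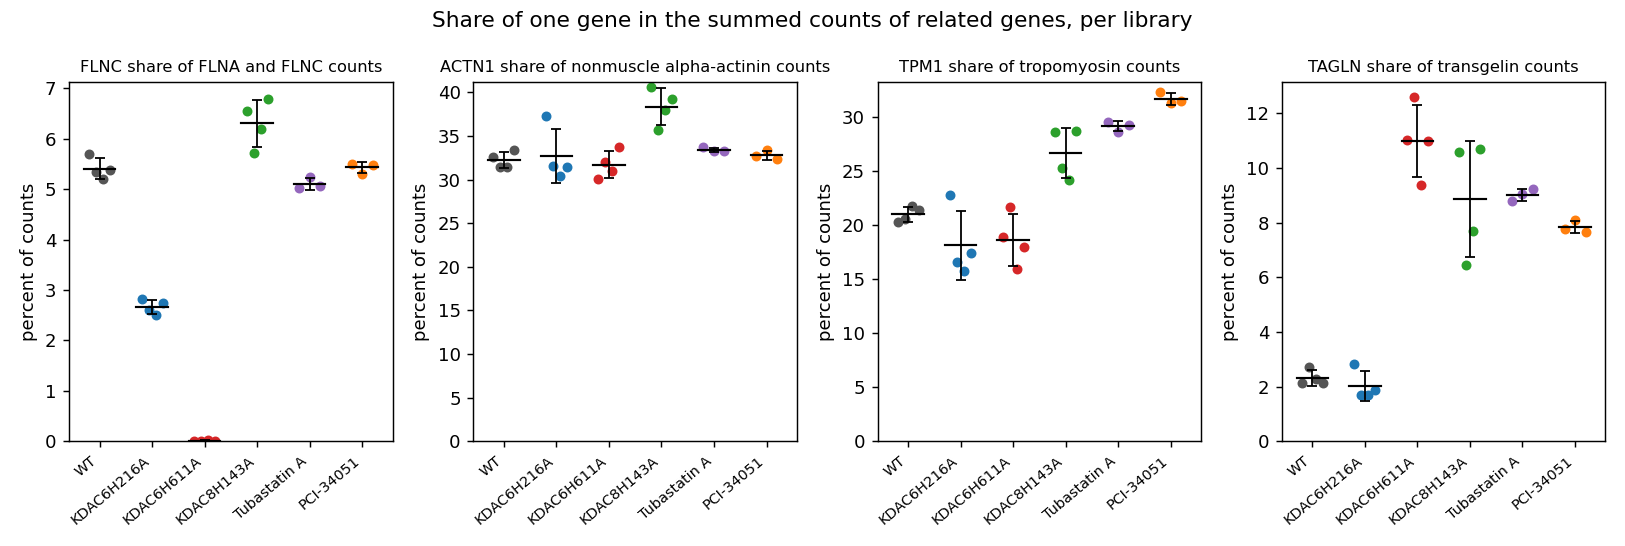
Share of 1 gene in the summed counts of related genes in every library (points), with group mean and SD: FLNC of FLNA and FLNC, ACTN1 of both nonmuscle alpha-actinins, TPM1 of 4 tropomyosins and TAGLN of TAGLN and TAGLN2. FLNC was at 5.41% in WT cells, 2.66% in KDAC6H216A and at most 0.0134% in KDAC6H611A, and the tropomyosin share of TPM1 was 29.1% and 31.7% with the inhibitors against 21.0%.

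FLNA, the main filamin of nonmuscle cells, was not called in the main fits of the 4 comparisons in which it was tested. WT libraries were at 2282, 2825, 2828 and 2773 CPM, and KDAC6H611A libraries at 2588, 1919, 2702 and 3086 CPM, so that FLNA overlapped WT cells where FLNC was lost. The log2 fold change there, without a test, was -0.03 ± 0.16. In KDAC6H216A replicate 1 was at 2023 CPM and replicates 2 to 4 at 3138 to 3466 CPM (log2 fold change 0.07 ± 0.13, adjusted p = 0.839, and 0.19 ± 0.06 with an adjusted p of 0.016 without replicate 1). FLNA was at 1939 to 2500.5 CPM in KDAC8H143A (-0.27 ± 0.12, adjusted p = 0.0557). That value passed without KDAC8H143A replicate 3 (-0.39, adjusted p = 6.71e-03), under DESeq2 (-0.32, adjusted p = 5.42e-03) and with a correction for GC content and length (-1.22, adjusted p = 2.26e-05), and was 0.02 with library totals only. With Tubastatin A FLNA was at 2740 to 2839 CPM (-0.05 ± 0.05, adjusted p = 0.423, called at -0.13 with the correction and at 0.30 with library totals only) and with PCI-34051 at 2631 to 2724 CPM (-0.09 ± 0.06, adjusted p = 0.174, and -0.14 with an adjusted p of 7.64e-03 without WT replicate 1).

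The genes around FLNC on chromosome 7 did not share its loss. This look at the locus was chosen after the loss was seen. Of the protein-coding genes reaching into 500 kb on either side, 14 passed the count filter in KDAC6H611A, and their log2 fold changes ran from -0.01 to 3.11. CALU, a calcium-binding protein of the secretory pathway, whose start lies 91.1 kb to the left, was at 386 ± 89.1 CPM against 357 ± 24.6 CPM in WT cells. ATP6V1F, a proton pump subunit 32.5 kb to the right, was at 29.2 ± 10.2 against 29.1 ± 2.69 CPM. KCP, 31.6 kb to the right, was at 4.36 ± 1.38 against 0.45 ± 0.36 CPM, the largest rise among them in KDAC6H611A. That rise was not particular to this line, since KCP was at 8.10 ± 3.81 CPM in KDAC8H143A. FLNC-AS1, the antisense gene annotated across the end of FLNC, was at 0 counts in all libraries.

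**Figure D3:**
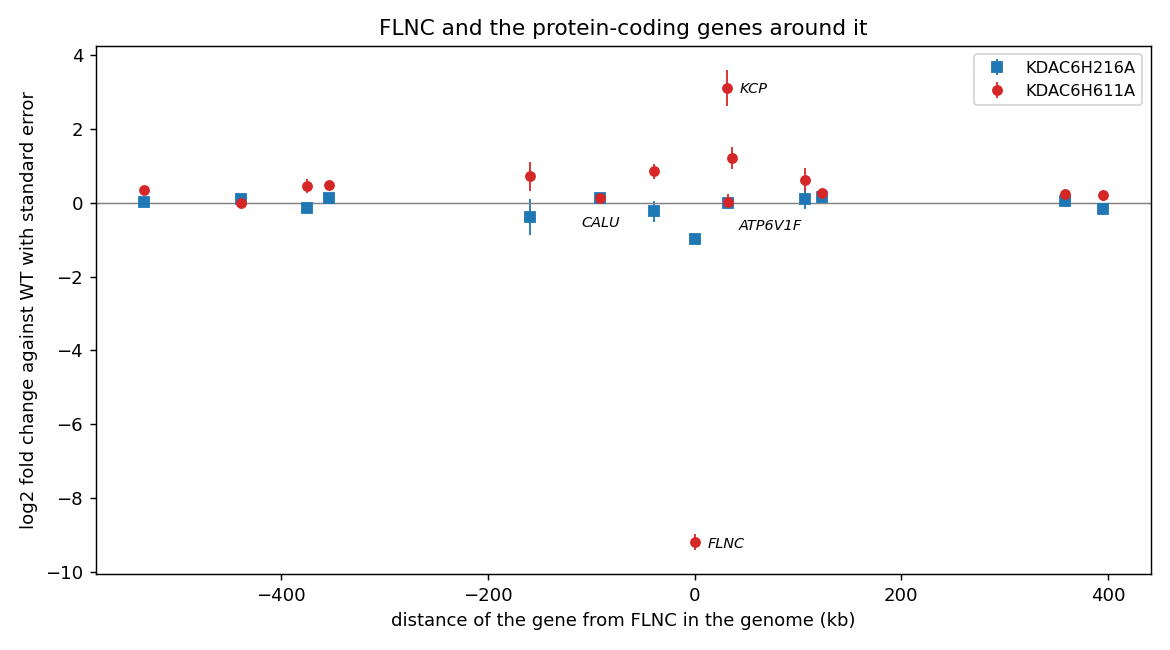
Fitted log2 fold change against WT with its standard error, for FLNC and the protein-coding genes around it, by the distance of each gene's start from that of FLNC in kb. FLNC stands at -9.20 in KDAC6H611A (circles) and -0.99 in KDAC6H216A (squares), while the other genes lie at -0.01 or above in KDAC6H611A.

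The genes with the profile most like that of FLNC were sought among 9295 protein-coding genes at 10 CPM or more, by Pearson's r of log2(CPM + 0.5) over the 22 libraries. The libraries share groups and depths, so r is a description. They include the KDAC6H611A libraries, whose loss of FLNC chose this gene. A gene lower than WT cells mainly in KDAC6H611A can thus rank high, and how far those libraries set the order was not tested. EPB41L3, a membrane skeleton protein of the band 4.1 family, came first with r = 0.996. Its mean was 186 CPM in WT cells, 121 CPM in KDAC6H216A, 155 CPM in KDAC8H143A, 185 CPM with Tubastatin A and 139.7 CPM with PCI-34051, and it was listed at 0 in KDAC6H611A. EPG5, an autophagy factor (r = 0.967), and C18orf25 (r = 0.957) followed with 51.8 CPM against 148 CPM and 29.0 CPM against 58.7 CPM in KDAC6H611A and WT cells. Unlike FLNC, both were about level with WT cells in KDAC6H216A, at 150.4 and 60.4 CPM. All 3 genes lie on chromosome 18.

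CTTN was called lower with Tubastatin A and higher in KDAC8H143A. WT libraries were at 245, 265, 249 and 248 CPM, KDAC6H216A libraries at 249, 249.7, 251 and 249 CPM and KDAC6H611A libraries at 232, 261, 239 and 274 CPM. Both KDAC6 mutants overlapped WT cells. The log2 fold changes were -0.10 ± 0.08 in KDAC6H216A (adjusted p = 0.618) and 0.03 ± 0.10, without a test, in KDAC6H611A. With the KDAC6 inhibitor the 3 libraries were at 218, 216.2 and 219 CPM, below all WT libraries. The difference of -0.32 ± 0.04 was called (adjusted p = 3.39e-06) and was 0.03 (adjusted p = 0.625) with library totals only. With PCI-34051 the libraries were at 241, 253 and 240.0 CPM and the difference was -0.14 ± 0.05 (adjusted p = 0.0316).

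In KDAC8H143A CTTN was at 349.7, 252, 339 and 388 CPM, so that replicate 2 lay within the WT range and the other 3 above it. The rise of 0.45 ± 0.13 was called at an adjusted p of 7.80e-03. The call was lost when any library other than KDAC8H143A replicate 2 was left out, with values from 0.32 to 0.46 and adjusted p from 0.0211 to 0.0354, and with the GC and length correction (0.08, adjusted p = 0.51). The likest profiles to CTTN were those of TP53I13 (r = 0.965), TRMT1 (r = 0.961) and GNPTG (r = 0.954), each highest in KDAC8H143A. TRMT1, a tRNA methyltransferase, was at 112 CPM there against 45.7 CPM in WT cells.

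Among 10 partners and modifiers of cortactin, KDAC6 itself was the 1 gene called in KDAC6H216A. In KDAC6H611A 1 rose and 3 fell, beside 6.08% and 6.24% of all genes, among them the acetyltransferases KAT2B (0.53 ± 0.11, adjusted p = 3.40e-03) and EP300 (-0.92 ± 0.09, adjusted p = 1.46e-05). In KDAC8H143A 4 rose and 4 fell of 10, beside 31.6% and 26.9% of all genes, with SRC, a kinase of cortactin, at 0.74 ± 0.12 (adjusted p = 1.77e-04) and KAT2B at -0.79 ± 0.11 (adjusted p = 5.44e-05). With Tubastatin A 1 rose and 2 fell (29.3% and 28.6% of all genes) and with PCI-34051 1 rose and 1 fell (25.5% and 25.6%). The kinases FER (0.74 ± 0.05 and 0.67 ± 0.06, adjusted p = 2.26e-10 and 7.35e-08) and ABL2 (-0.64 ± 0.05 and -0.71 ± 0.05, adjusted p = 3.92e-10 and 4.20e-09) were the ones with the largest rise and fall with both.

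Of the alpha-actinins, ACTN4 fell in KDAC8H143A and ACTN1 did not pass the test there. ACTN1 was at 382, 432, 426 and 443 CPM in WT cells and 368, 345, 421 and 420.3 CPM in KDAC8H143A, which overlapped (-0.06 ± 0.10, adjusted p = 0.586). ACTN4 was at 789, 941, 928 and 885 CPM in WT cells and 539, 624, 687 and 651 CPM in KDAC8H143A, where all 4 libraries were lower. Its fall of 0.45 on the log2 scale (SE 0.10, adjusted p = 2.12e-03) was called without any 1 library and ended with library totals only (-0.17, adjusted p = 0.256). With the GC and length correction ACTN4 was at -1.14 and ACTN1 was called too, at -0.51 (adjusted p = 1.27e-04). The share of ACTN1 in the counts of both genes was 38.4% ± 2.11 in KDAC8H143A against 32.2% ± 0.92 in WT cells (exact permutation p = 0.0286, the smallest possible, adjusted 0.0914).

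With Tubastatin A both alpha-actinins rose, ACTN1 to 552, 516 and 540.1 CPM (0.23 ± 0.05, adjusted p = 2.13e-04) and ACTN4 to 1086, 1036 and 1081 CPM (0.15 ± 0.05, adjusted p = 6.30e-03). The ACTN4 call was lost without WT replicate 4 (0.16, adjusted p = 0.0119), Tubastatin A replicate 1 (0.14, adjusted p = 0.032) or Tubastatin A replicate 3 (0.16, adjusted p = 0.0255). With PCI-34051 ACTN1 was at 488, 524 and 507 CPM (0.17 ± 0.06, adjusted p = 0.016) and ACTN4 at 1004, 1048 and 1059.8 CPM (0.13 ± 0.06, adjusted p = 0.0535), above all WT libraries and not called. In the KDAC6 mutants both overlapped WT cells. ACTN1 was at 393 to 491 CPM in KDAC6H216A (0.03 ± 0.07) and 295 to 486 CPM in KDAC6H611A (-0.12 ± 0.13), and ACTN4 at 663 to 1069 CPM (0.01 ± 0.11) and 626 to 957 CPM (-0.09 ± 0.13). In KDAC6H216A the lowest value of both was that of replicate 1.

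TPM1 was the member with the largest rise among the abundant genes. It was at 184, 201, 222 and 203 CPM in WT cells, at 445, 405 and 436 CPM with Tubastatin A and at 429, 424 and 421 CPM with PCI-34051. No inhibitor library came near the WT range. The log2 fold changes were 0.96 ± 0.05 (adjusted p = 5.48e-12) and 0.97 ± 0.06 (adjusted p = 1.95e-10), and the calls were kept when any 1 library was left out. Its share of the counts of TPM1 to TPM4 was 21.0% ± 0.68 in WT cells, 29.1% ± 0.46 with Tubastatin A and 31.7% ± 0.57 with PCI-34051, outside the WT range (exact permutation p = 0.0571, the smallest possible for 3 against 4). The family did not move as 1 in either group. TPM4 rose by 1.11 and 0.93 on the log2 scale, while TPM2 fell by 0.64 and 0.78 and TPM3 fell by 0.27 and 0.45, with Tubastatin A and PCI-34051 in that order (all called).

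In KDAC8H143A TPM1 was at 298, 211, 278 and 374 CPM (0.57 ± 0.15, adjusted p = 5.65e-03), with replicate 2 within the WT range. As for CTTN, the call was lost when any library other than KDAC8H143A replicate 2 was left out (0.37 to 0.60, adjusted p 0.0127 to 0.0238), and with the GC and length correction (0.46, adjusted p = 0.0154). In both KDAC6 mutants TPM1 was below every WT library, but by a narrow margin. The highest library was at 183 CPM in KDAC6H216A and 182 CPM in KDAC6H611A, and the lowest WT library at 184 CPM. KDAC6H216A libraries were at 183, 172, 172 and 176 CPM (-0.29 ± 0.09, adjusted p = 0.171), and without replicate 1 the difference was called (-0.36 ± 0.06, adjusted p = 4.82e-05). KDAC6H611A libraries were at 150.2, 154, 150.0 and 182 CPM (-0.32 ± 0.10, description only). The share of TPM1 in the tropomyosin counts overlapped WT cells (20.3% to 21.7%) in both mutants. It was 15.7% to 22.8% in KDAC6H216A (exact permutation p = 0.143, adjusted 0.208) and 16.0% to 21.7% in KDAC6H611A. TPM1-AS, a gene on the opposite strand, lies within TPM1 at chr15:63046034-63049387. It was at 18.8 ± 1.82 CPM in WT cells, 47.2 ± 7.36 in KDAC8H143A, 31.1 ± 1.63 with Tubastatin A and 36.1 ± 0.71 CPM with PCI-34051. ENSG00000259627, also on the opposite strand, lies within the end of TPM1. It was at 3.42 ± 1.55 CPM in WT cells and at 0 CPM in KDAC8H143A and with both inhibitors. Whether the counting used strand is not given in the sources used here. Reads of TPM1 and of these genes thus cannot be told apart where they overlap.

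TAGLN, an early marker of the smooth muscle program, had the largest called rises among the 8 genes tested, at a low level. WT libraries were at 4.96, 7.61, 6.19 and 5.65 CPM, from 24 to 61 counts. It was at 37.3, 35.2 and 39.6 CPM with Tubastatin A and 26.4, 27.9 and 26.5 CPM with PCI-34051. The log2 fold changes were 2.47 ± 0.10 (adjusted p = 1.04e-13) and 2.02 ± 0.11 (adjusted p = 5.06e-11), or 5.55-fold and 4.04-fold, and both were called without any 1 library. In KDAC8H143A the libraries were at 16.8, 13.0, 17.1 and 17.8 CPM (1.44 ± 0.17, adjusted p = 2.16e-05), a call that held without any 1 library and with the GC and length correction (0.92). In KDAC6H611A they were at 19.5, 15.3, 19.0 and 22.1 CPM, above every WT library (1.65 ± 0.16, description only, 1.57 to 1.77 without single libraries). KDAC6H216A, in contrast, overlapped the WT range at 5.38, 4.93, 5.41 and 5.81 CPM (-0.27 ± 0.17, adjusted p = 0.541).

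The end of TAGLN overlaps PCSK7 on the opposite strand, a protease gene at 76.1 ± 1.07 CPM in WT cells, 56.5 ± 2.29 with Tubastatin A, 61.8 ± 1.299 with PCI-34051, 104 ± 11.8 in KDAC8H143A and 83.1 ± 16.5 CPM in KDAC6H611A. With both inhibitors the level of PCSK7 was thus lower where that of TAGLN was higher, and in KDAC8H143A both were higher. A gene to be checked by experiment, ENSG00000280143, overlaps the end of TAGLN on the same strand and was at 5.40 ± 1.41 CPM in WT cells, close to TAGLN itself, at 11.75 ± 0.94 in KDAC8H143A, and at 5.19 ± 2.58, 5.09 ± 0.33 and 5.11 ± 0.91 CPM in KDAC6H611A, with Tubastatin A and with PCI-34051. TAGLN2, the main transgelin, fell in KDAC6H611A (-0.69 ± 0.14, adjusted p = 3.35e-03) and KDAC8H143A (-0.54 ± 0.12, adjusted p = 2.28e-03) and rose with Tubastatin A (0.44 ± 0.05, adjusted p = 3.34e-07) and PCI-34051 (0.20 ± 0.06, adjusted p = 5.07e-03). The share of TAGLN in the counts of both was 2.32% ± 0.28 in WT cells. It reached 9.02% ± 0.22 with Tubastatin A, 7.84% ± 0.21 with PCI-34051, 8.86% ± 2.12 in KDAC8H143A and 11.0% ± 1.31 in KDAC6H611A. The profiles most like that of TAGLN were those of HSPG2, the basement membrane proteoglycan perlecan (r = 0.958), ALDH1L2, a mitochondrial folate enzyme (r = 0.957), and MLLT11 (r = 0.952). HSPG2 was highest with PCI-34051 (238 CPM) and Tubastatin A (232 CPM), followed by KDAC6H611A (119 CPM) and KDAC8H143A (111 CPM), and its levels in WT cells and KDAC6H216A were 59.4 and 35.5 CPM.

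CNN1, the calponin of smooth muscle, was near the limit of detection and passed the count filter in no main fit. With single libraries left out it passed in 4 fits with each inhibitor. Its log2 fold change there was 2.49 to 3.97 with Tubastatin A (4 called) and 2.11 to 3.58 with PCI-34051 (2 called). Its counts were 1, 0, 2 and 0 in the WT libraries, 24, 26 and 38 with Tubastatin A and 22, 22 and 19 with PCI-34051. At equal depth the summed counts gave a ratio to WT cells of 8.81 (95% interval 2.92 to 43.6) with Tubastatin A, of 6.72 (2.20 to 33.4) with PCI-34051 and of 3.44 (1.03 to 18.0) in KDAC8H143A. These intervals cover counting error only. In KDAC6H611A the ratio was 3.34 (0.90 to 18.4), and KDAC6H216A and WT cells were both at 3 counts in all.

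CNN2, the calponin of nonmuscle cells, was at 77.1, 93.2, 95.2 and 89.2 CPM in WT cells. It rose with Tubastatin A to 131, 125 and 132 CPM (0.43 ± 0.05, adjusted p = 7.65e-07) and with PCI-34051 to 117, 127 and 127 CPM (0.38 ± 0.06, adjusted p = 1.72e-05), each above every WT library. In KDAC8H143A it was at 55.7, 78.1, 68.3 and 53.1 CPM (-0.43 ± 0.13, adjusted p = 9.99e-03). With the GC and length correction it was -1.05. The call lay at the threshold and was lost with library totals only (-0.13), with no filter (-0.40), without the mitochondrial genes (-0.42), and without WT replicates 2, 3 or 4 or KDAC8H143A replicates 1 or 4 (-0.44 to -0.36, adjusted p 0.0122 to 0.0378). In the KDAC6 mutants it overlapped WT cells, at 67.2, 111, 107 and 107 CPM in KDAC6H216A (0.05 ± 0.11, adjusted p = 0.876) and 87.8, 69.2, 96.1 and 91.1 CPM in KDAC6H611A (-0.02 ± 0.10). Near-identical copies of the members took few counts. None of the 14 copy or antisense rows reached 0.5% of its parent's level in a library, and the highest was CNN2P1 with 0.485%.

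**Figure D4:**
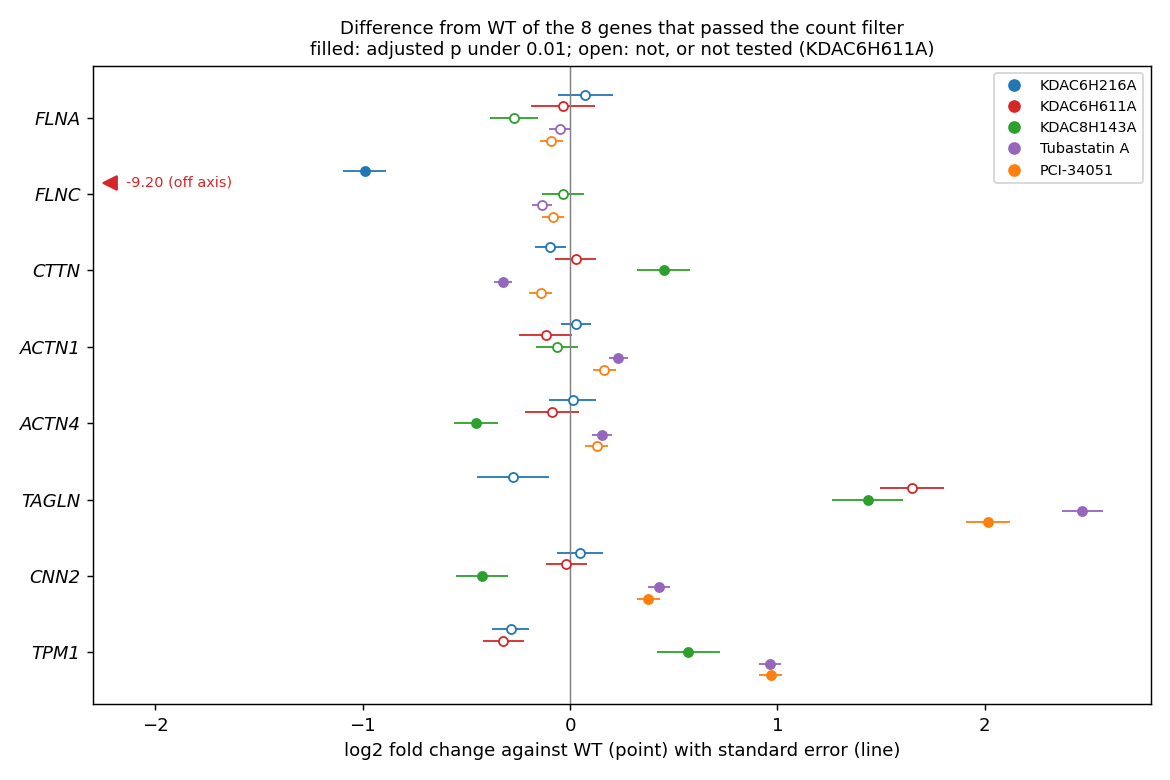
Log2 fold change against WT (points) with standard error (lines) of the 8 genes that passed the count filter, by comparison; filled points passed an adjusted p of 0.01. TAGLN and TPM1 lie to the right in both inhibitor groups and in KDAC8H143A, and the FLNC value of KDAC6H611A, -9.20, is off the axis and marked by an arrow.

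Counted over the 8 genes tested, 5 were higher and 1 lower with Tubastatin A, beside 29.3% and 28.6% of all genes tested. With PCI-34051 3 were higher and none lower, beside 25.5% and 25.6%. In KDAC8H143A 3 were higher and 2 lower, beside 31.6% and 26.9%. In KDAC6H611A, where the members were not tested, 6.08% of all genes were called higher and 6.24% lower. The median log2 fold change of the 8 was 0.19 with Tubastatin A and 0.15 with PCI-34051, while that of all genes was -0.003 and -0.007. It was -0.05 in KDAC8H143A (all genes 0.08), -0.04 in KDAC6H216A and -0.06 in KDAC6H611A. With library totals only, which raised the median of all genes, 7 members were called higher and 0 lower with Tubastatin A, 8 and 0 with PCI-34051, and 3 and 0 in KDAC8H143A, whereas the GC and length correction gave 1 higher and 5 lower in KDAC8H143A. In a fit of all 6 groups together the calls of CTTN (-0.21, adjusted p = 0.156), ACTN1 (0.35, adjusted p = 0.0425) and ACTN4 (0.27, adjusted p = 0.178) with Tubastatin A and of CNN2 with PCI-34051 (0.48, adjusted p = 0.017) were lost. With Tubastatin A the correction gave 5 higher and 3 lower and DESeq2 5 and 2. The 0 lower with PCI-34051 became 1 under DESeq2, which also called 4 higher, and 2 with the correction.

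The inhibitors were used at different doses, so their values stand side by side without a comparison. TAGLN, TPM1 and CNN2 were called higher with both. With Tubastatin A CTTN was also called lower and ACTN1 and ACTN4 higher, which they were not with PCI-34051, and whether the groups differ there was not tested. Both share the WT libraries as reference. Fibroblast and mesenchymal markers summed to 4688 to 5474 CPM in WT cells, 6784 to 7184 CPM with Tubastatin A and 7232 to 7486 CPM with PCI-34051. The 5 smooth muscle markers summed to 149.5 to 180.4 CPM in WT cells, 94.4 to 97.4 CPM with Tubastatin A and 87.5 to 94.7 CPM with PCI-34051, mostly from SMTN, with DES at 0 in 13 libraries and MYOCD at 0 in 20. The part of cell state in the rise of TAGLN and TPM1 was not tested, and fewer cells of a kind and less RNA per cell cannot be told apart in bulk RNA.

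The other genes of the actin cytoskeleton, 112 in 10 lists, set the members in context. With Tubastatin A 57 of 109 tested were called higher and 18 lower, beside 29.3% and 28.6% of all genes. With PCI-34051 42 were higher and 20 lower, beside 25.5% and 25.6%. All 3 actin isoforms tested and 15 of 20 filament turnover and capping genes were higher with Tubastatin A. The latter were led by GSN, which severs filaments (1.38 ± 0.05, adjusted p = 1.19e-14), while TMSB10, which binds free actin, fell (-0.58 ± 0.05, adjusted p = 1.80e-09). Of 9 nonmuscle myosin II genes and kinases 4 rose and 2 fell with Tubastatin A, and 3 rose and 3 fell with PCI-34051. Among them MYL9, a regulatory light chain, rose by 2.54 and 2.28 on the log2 scale with Tubastatin A and PCI-34051. MYL6 was at -0.92 and -1.14. Of 8 other side binders 4 rose and 3 fell with each, with CALD1 at 1.24 and 0.96 and TAGLN3 at -0.90 and -1.58. ACTA2, smooth muscle actin, rose by 0.95 and 0.74, and MARCKS, a membrane crosslinker at 0.20 CPM in WT cells, reached 6.89 and 6.83 CPM. Of 13 adhesion linkers 8 rose and 1 fell with Tubastatin A and 7 and 1 with PCI-34051, PDLIM1 rising by 1.84 and 1.49 on the log2 scale and TLN2, a talin, falling (-0.34 and -0.67). Of 11 formins and Ena/VASP proteins 3 rose and 3 fell with each, led by ENAH (1.15 and 1.07), an elongation factor of filaments. Of SRF and its coactivators, MRTFB rose with both (0.36 and 0.34) and MRTFA fell with Tubastatin A (-0.24, adjusted p = 9.44e-03). With library totals only the split was 89 higher and 7 lower with Tubastatin A and 87 and 8 with PCI-34051.

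In KDAC8H143A the balance was the other way, with 23 of 108 higher and 50 lower (33 and 31 with library totals only), beside 31.6% and 26.9% of all genes. No gene of the Arp2/3 list rose and 11 of 20 fell, most of all the subunit ARPC3 (-2.24 ± 0.12, adjusted p = 1.21e-07). Of the formins and Ena/VASP proteins 4 of 11 rose, most of all the formin FHOD1 (1.48 ± 0.17, adjusted p = 1.39e-05), and 3 fell. Of the adhesion linkers 3 of 13 rose and 5 fell, with TES at -2.28 ± 0.17 (adjusted p = 1.09e-06). SRF (0.56 ± 0.12, adjusted p = 1.02e-03) and MRTFA (0.77 ± 0.16, adjusted p = 1.03e-03) rose, and MRTFB was not called (0.25 ± 0.12, adjusted p = 0.0697). In KDAC8H143A the smooth muscle markers summed to 145 to 277 CPM and the mesenchymal markers to 3050 to 4138 CPM. The part of this in the levels of TAGLN and TPM1 was not tested. In KDAC6H611A 10 of 109 rose and 20 fell, beside 6.08% and 6.24% of all genes, and without KDAC6H611A replicate 2 18 rose and 29 fell. MYH10, a nonmuscle myosin II heavy chain, fell from 79.7 ± 7.25 to 6.21 ± 0.34 CPM (-3.66 ± 0.11, adjusted p = 1.30e-09), and MARCKS rose from 0.20 ± 0.19 to 9.95 ± 2.53 CPM (5.46 ± 0.39, adjusted p = 1.94e-06). MYL9 (0.93 ± 0.12, adjusted p = 1.93e-04) and ACTA2 (0.82 ± 0.14, adjusted p = 1.55e-03) rose there. The smooth muscle markers summed to 108.9 to 151 CPM there against 149.5 to 180.4 CPM in WT cells and the mesenchymal markers to 2692 to 4765 CPM against 4688 to 5474 CPM, and the part of this in the levels of TAGLN, MYL9 and ACTA2 was not tested. In KDAC6H216A the 1 call of 108 was HDAC6, which was not called when most single libraries were left out, and without replicate 1 29 rose and 6 fell.

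**Figure D5:**
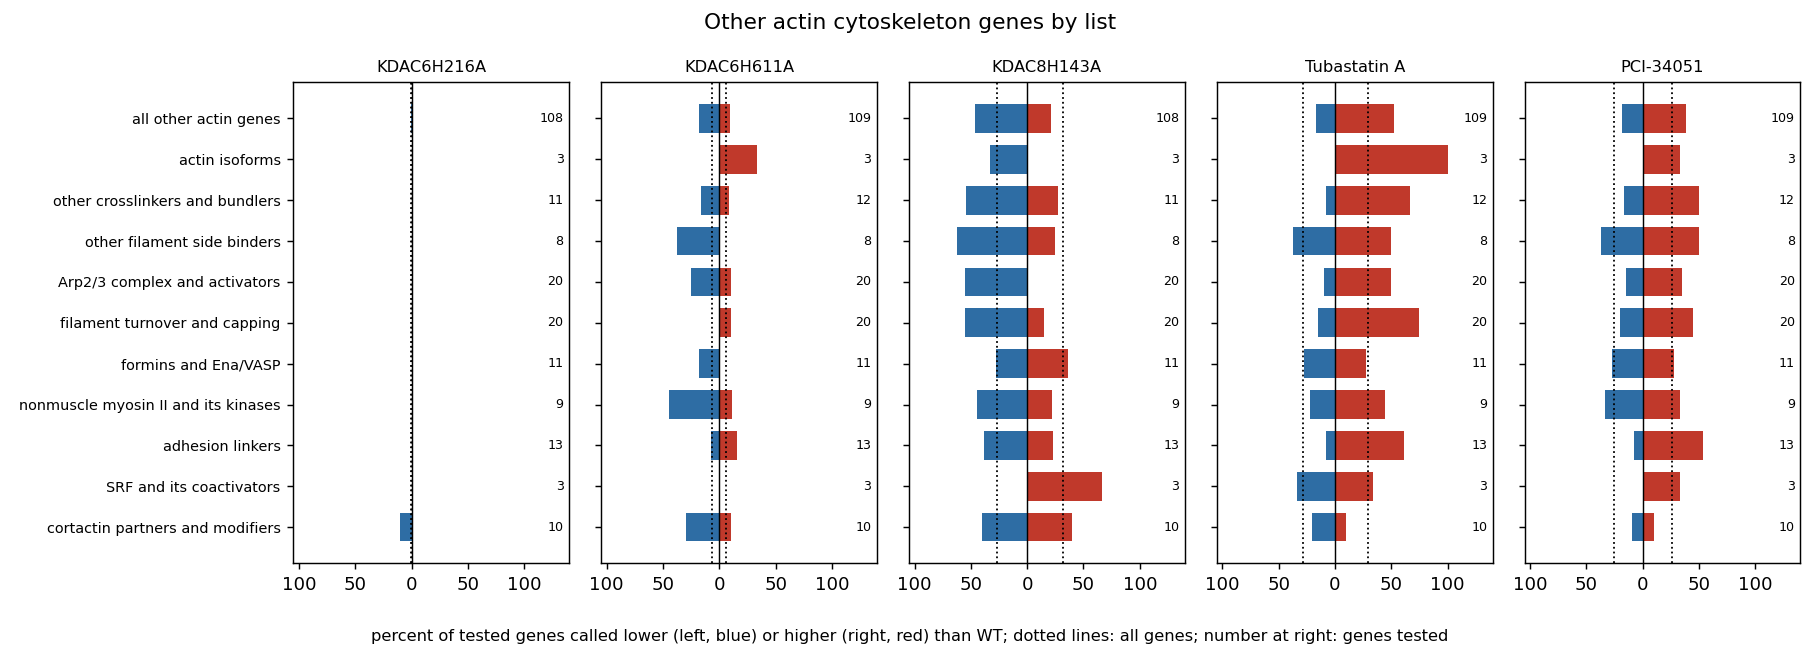
Percent of tested genes called higher (right) or lower (left) than WT in each of 10 lists of other actin genes and in all of them together, by comparison; dotted lines give the percent over all genes. Of all other actin genes, 52.3% were called higher with Tubastatin A and 46.3% lower in KDAC8H143A, and 1 gene was called in KDAC6H216A.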

How the data were processed

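RNA of HT1080 cells was sequenced in 22 libraries of 6 groups, as the labels name them. The authors depleted rRNA, trimmed paired reads with Trimmomatic 0.39, aligned them with Bowtie2 2.4.5 to GRCh38 and deposited RSEM 1.3.3 expected counts per gene, not scaled for depth or length; DESeq2 1.38.2 is listed in the submitters' processing notes. The annotation release and the use of strand are not given in the sources used here. The labels only number the replicates, and the study's methods call them biological. The p-values measure the spread between these libraries.

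Expected counts were rounded. Each mutant or treatment was compared with WT in a fit of both groups with edgeR 4.0.16 (R 4.3.3; TMM, filterByExpr, glmQLFit and glmQLFTest), called at a Benjamini-Hochberg adjusted p under 0.01, the level of the study. SE is the log2 fold change over the square root of F. The procedure was tested on simulated data. Genes, lists and comparisons were chosen with earlier results of these data known. KDAC6H611A chose FLNC, so members have no test there. All 9 members were named, with their copies, genes from among the largest called rise and fall of each list (not all are printed), and the 3 likest profiles of FLNC, CTTN and TAGLN; FLNC neighbors, overlapping genes and family relatives were named after their values were seen. Lengths and positions came from GENCODE 44 (56558 of 60675 identifiers matched), and 0 value columns were unused. Alternatives were DESeq2 1.42.0, library totals only, no filter, a GC and length correction (mgcv 1.9.3), the replicate block, all 6 groups in 1 fit, no mitochondrial genes and single libraries left out. Summaries used python 3.11.15, pandas 2.3.3, scipy 1.17.1 and matplotlib 3.10.9. 1 related gene is not reported here.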

Additional observations from a re-analysis of the deposited data

Results flagged for a closer look

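Of 31 groups of 4 libraries tested for a value far from the others (a gene in a group), 5 were flagged, where chance flags about 1 in 20. FLNA in WT replicate 1 was at 2282 CPM, below the 2773 to 2828 CPM of the other WT libraries. CTTN in WT replicate 2 was at 264.7 CPM, above the 245.5 to 248.6 CPM of the others. In KDAC6H216A replicate 1, ACTN4 was at 662.6 CPM against 1035 to 1069 CPM in the other replicates, and CNN2 at 67.23 CPM against 106.6 to 111.4 CPM. That library held 0.195% mitochondrial rRNA against 13.1% to 15.1% in the others, and the part of this in the low values was not tested. TPM1 in KDAC6H611A replicate 4 was at 181.9 CPM against 150.0 to 153.9 CPM in the other replicates, and that library held 0.173% mitochondrial rRNA.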

How the results depend on the processing

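FLNC in KDAC6H611A stayed lost under every alternative run, from -9.56 to -8.85. Counts of calls moved as follows. With library totals only, 3 members were called in KDAC8H143A and 8 with PCI-34051 (5 and 3 as reported), and 7, 10 and 95 other actin genes in KDAC6H216A, KDAC6H611A and with PCI-34051 (1, 30 and 62). DESeq2 called 7 other actin genes in KDAC6H216A and 5 members with PCI-34051, and no filter gave 6 members there. The GC and length correction gave 5 members with PCI-34051, alone and with the replicate block. In no comparison did every same-numbered pair deviate together with a correlation over 0.1 (-0.238 to 0.405 in all, and 0.405, 0.14, 0.371 and -0.034 in KDAC6H216A), so the numbers were not taken to pair the libraries. The replicate block called 0 other actin genes in KDAC6H216A, with or without the correction, with CTTN lost from the 5 members in KDAC8H143A and ACTN4 from the 6 with Tubastatin A. With PCI-34051 it called 3 members. All 6 groups in 1 fit gave 34 other actin genes with Tubastatin A and 34 with PCI-34051.

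Leaving out single libraries gave, by edgeR, 0 to 2 members in KDAC6H216A (0 without WT replicate 3 or 4 or KDAC6H216A replicate 2, and 2 without KDAC6H216A replicate 1) and 0 to 35 other actin genes (35 without KDAC6H216A replicate 1, and 0 without any other library but WT replicate 1). In KDAC6H611A it gave 21 to 47 other actin genes, with 47 without its replicate 2. It gave 2 to 5 members in KDAC8H143A (3 without WT replicate 1, and 2 without WT replicate 2, 3 or 4 or KDAC8H143A replicate 1 or 4) and 3 to 5 with PCI-34051 (5 without WT replicate 1). In KDAC6H216A, near 0, ACTN4 ran from -0.03 to 0.12 and CNN2 from -0.01 to 0.15. Signs turned for small values. With library totals only CTTN was 0.08 in KDAC6H216A, 0.25 with PCI-34051 and 0.03 with Tubastatin A, FLNA was 0.02 in KDAC8H143A and 0.30 with either inhibitor, FLNC was 0.25, 0.22 and 0.31 in these groups, and ACTN1 was 0.22 in KDAC8H143A. ACTN4 in KDAC6H216A was -0.02 with the correction and -0.03 with the block added. With no filter FLNA was 0.05 with Tubastatin A and FLNC 0.003 with PCI-34051. With all 6 groups in 1 fit FLNA was 0.07 and 0.01 with the inhibitors and FLNC 0.02 with PCI-34051. The cause was not tested. CNN1, with 0 to 2 counts in each WT library, was limited by depth.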
